A study of Mus musculus with 40 samples.

Results

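The genes described here are 8 Notch target genes, Hes1, Hes5, Hey1, Hey2, Heyl, Nrarp, Dtx1 and Rbpj, chosen by symbol from the 52636 genes counted in mouse brown adipose tissue. Of these, 7 had enough reads to be tested and Hes5 did not. Tissue came from male C57BL/6 mice, given as 10 to 14 weeks old in the sample labels and 10 to 12 weeks in the series' design text, with 5 mice in each of 8 groups. Every mouse received 1 intraperitoneal dose of antibody, either 40 mg/kg of an isotype control directed at ragweed (control mice, numbered 1 to 5 in each group) or 20 mg/kg each of antibodies that block the Notch ligands Jag1 and Jag2 (Jag mice, numbered 6 to 10). Tissue was collected 15 h, 5 d or 7 d after the dose. A further control group and a further Jag group, both collected at 7 d, were injected every day from day 2 with thyroid hormone, at doses per g of body weight of 1 ug for T4 and 0.05 ug for T3. The mice carry no transgene or deletion named in the labels, the antibodies were given systemically, and whole tissue was sequenced, so fewer cells of a type and less RNA per cell cannot be told apart. The labels give each mouse a number and no litter or day, so a difference is judged against the spread between mice of a group.

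When a Jag or Delta ligand on one cell binds a Notch receptor on its neighbour, the receptor is cut and its intracellular domain moves to the nucleus, where it binds the DNA-binding protein RBPJ and recruits a Mastermind coactivator. Without the receptor fragment RBPJ sits on DNA with corepressors. Hes and Hey genes encode basic helix-loop-helix repressors and are the best known targets, while Nrarp and Dtx1 act back on the pathway. In adipose tissue Notch signalling is known to restrain the thermogenic programme of adipocytes, and in vessels it acts in endothelial and mural cells.

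The changes that passed the test were mostly those over time and with hormone, comparisons in which many genes were called. From 15 h to 7 d the test called 2 of the 7 genes in control mice and 1 in Jag mice, beside 45.1% and 18.3% of all genes. With hormone in control mice it called 1, beside 43.2% of all genes. Hey1 was 3.19-fold higher at 7 d than at 15 h in control mice and 2.65-fold higher in Jag mice. Rbpj was 3.97-fold lower at 7 d than at 15 h in control mice and 2.31-fold higher with thyroid hormone than without it in control mice at 7 d. Between antibodies, the test called 1 of the 7 genes at 15 h (Rbpj, 2.41-fold lower in Jag mice) and none at 5 d, at 7 d or at 7 d with hormone, beside 1.14%, 8.02%, 2.5% and 1.14% of all genes. The counts of 0 are near those shares. The 1 of 7 at 15 h is above 1.14% but rests on 1 gene, and that Rbpj difference was no longer called without 2 control mice. Hes1 was about as much lower in Jag mice at 15 h and 7 d without passing the adjusted threshold.

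The libraries held 12217623 to 36511893 counts, with a median of 18949808. All 10 brown adipocyte markers (Ucp1, Cidea, Elovl3, Dio2, Ppargc1a, Prdm16, Adipoq, Plin1, Cox8b and Cox7a1) were counted in every group, at a summed 2920 to 47200 CPM (reads scaled to a common library total). Some libraries stood apart. Control mice 2 and 3 at 15 h had myeloid scores (the mean log2 CPM of 10 macrophage and granulocyte genes) of 8.61 and 6.67, against 2.55 to 4.25 in the other 3, and brown adipocyte scores of 6.57 and 7.26, the lowest of the 40 mice. Jag mouse 6 at 15 h had a B cell score of 3.79 and a T cell score of 3.01, against group means of 0.48 and -0.09 that include it. Results that rest on these mice are given with and without them. The skeletal muscle score at 5 d was -0.14 in Jag and 9.90 in control mice, a difference of -10.04, so calls at 5 d are also given with that score in the fit. With it, as without it, 0 of the 7 genes were called between antibodies at 5 d. The muscle score also varied within groups, as from -1.82 to 10.23 in control mice at 15 h. Control mouse 5 at 5 d had the highest muscle score of the 40 mice, 13.71. That mouse also had the highest Hes1 (4.26) and Hey1 (2.85) log2 CPM of its group and 0 Nrarp reads.

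Of the 8 genes, 5 have a start site in the RefSeq promoter table used here (GRCm38.p6), and Hes1, Hey1 and Heyl do not. RBPJ is known to prefer sites with the core TGGGAA, or TTCCCA when read on the other strand, and the longer form GTGGGAA overlaps that core. In the 250 bases before each RefSeq start, the core was found for Hes5, Hey2 and Rbpj and not for Nrarp or Dtx1. The same core lies in 21.6% of the 32851 windows of that length in the table, and GTGGGAA in 5.42%. The stretches below, 5′ to 3′ on each gene's strand, are shown because they hold these cores, which are in capitals, and they are cut where the annotated exon begins.
Hes5, chr4:154960673-154960922, plus strand: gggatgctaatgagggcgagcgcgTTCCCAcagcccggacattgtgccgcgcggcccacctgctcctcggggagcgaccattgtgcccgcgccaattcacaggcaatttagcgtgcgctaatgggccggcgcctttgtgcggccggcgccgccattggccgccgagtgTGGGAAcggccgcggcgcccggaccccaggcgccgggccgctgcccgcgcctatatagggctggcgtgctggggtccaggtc
Hey2, chr10:30842802-30843033, minus strand: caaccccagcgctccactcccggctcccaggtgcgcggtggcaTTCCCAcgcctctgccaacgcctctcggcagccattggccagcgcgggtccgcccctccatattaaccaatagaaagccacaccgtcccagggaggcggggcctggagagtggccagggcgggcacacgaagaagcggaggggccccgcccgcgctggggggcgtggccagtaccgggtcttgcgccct
Rbpj, chr5:53590096-53590213, plus strand: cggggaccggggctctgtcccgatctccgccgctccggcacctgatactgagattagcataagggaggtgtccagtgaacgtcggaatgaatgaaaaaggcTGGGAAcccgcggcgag

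Both Hes5 cores, 226 and 82 bases before its start, and the Hey2 core, 207 bases before, are in the longer form GTGGGAA. The Rbpj core shown lies 149 bases before the first of the RefSeq starts of that gene, and a further core 65 bases before that start falls outside the stretch shown. A match to the letters is a description of the sequence and not of binding, and no match says only that the letters are not in the window.

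Compared per length, as CPM per kb of annotated exon averaged over the 40 mice, Hes1 was the highest of the 8 at 5.03 and Heyl was next at 3.39. Hey1 stood at 1.51, Rbpj at 0.721, Hey2 at 0.582 and Nrarp at 0.552. Dtx1, at 0.0595, and Hes5, at 0.0148, were near the limit of detection. The order was not the same in the authors' FPKM values, which for some genes were divided by more than the exon length. In control mouse 1 at 15 h Heyl stood at 17.9 CPM and 1.11 FPKM, with 5113 bp of exon in a gene of 16320 bp. Rbpj stood there at 9.36 CPM and 0.093 FPKM, with 12750 bp of exon in a gene of 191211 bp. The 2 orders therefore rest on different lengths. As group means of log2(FPKM + 1), Rbpj (0.06 to 0.24) lay below Hey2 (0.21 to 0.51) and Nrarp (0.33 to 0.94) in every group. On that scale the ranges of Hey1 (0.67 to 1.63) and Heyl (0.79 to 1.23) overlapped. All values that follow compare mice for 1 gene, as log2 CPM with a prior count of 2, unless a count or a fold is named.

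**Figure D1:**
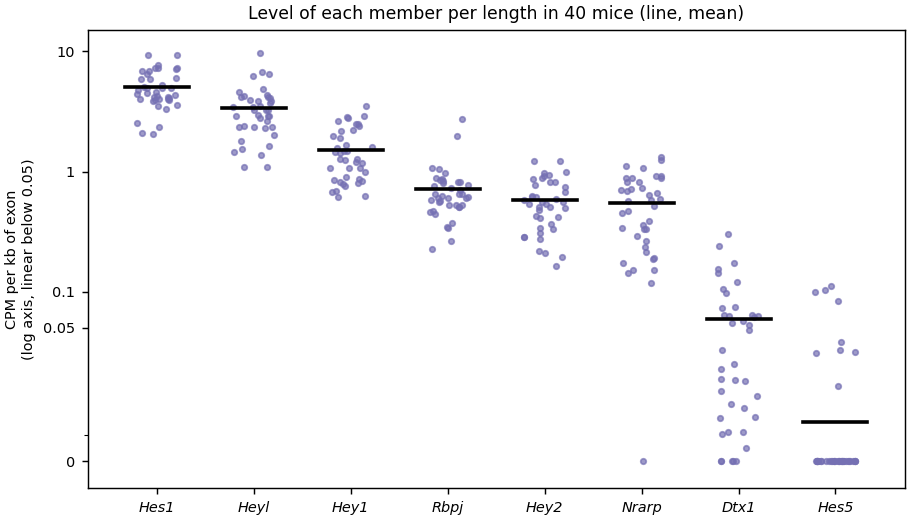
Level of each of the 8 genes in each of 40 mice (points) and their mean (line), in CPM per kb of exon on an axis that is logarithmic above 0.05 and linear below. Means run from 5.03 for Hes1 to 0.0148 for Hes5, for which 31 of the 40 mice lie at 0.

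Hes1 (ENSMUSG00000022528, GRCm38 chromosome 16, 30064384 to 30067796), a repressor with an oscillating transcript in many progenitors, was counted in every mouse with 62 to 352 reads. At 15 h the control mice had log2 CPM of 3.13, 3.61, 3.82, 3.86 and 3.80, and the Jag mice had 3.12, 3.35, 2.10, 2.28 and 2.41. In 4 of 5 Jag mice the level lay below every control mouse, though mice 6 and 7 lay near the lowest control mouse and apart from the other 3 Jag mice. The log2 fold change was -0.94 (SE 0.27, adjusted p = 0.0685) and did not pass the threshold of 0.05, while DESeq2 and a fit with length and GC offsets called it (adjusted p = 0.0334 and 0.03), as did the fit without control mouse 1 (-1.05, adjusted p = 0.0225).

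At 5 d the Hes1 values overlapped widely, at 3.05, 3.91, 3.61, 3.01 and 4.26 in control mice and 3.90, 3.60, 2.99, 3.39 and 3.21 in Jag mice, with a log2 fold change of -0.20 (adjusted p = 0.704). At 7 d control mice had 3.09, 3.74, 3.25, 4.25 and 3.90 and Jag mice had 2.79, 3.06, 3.34, 2.13 and 2.87. Again 4 of 5 Jag mice were below every control mouse, and the log2 fold change of -0.82 (SE 0.27, adjusted p = 0.0907) was called by DESeq2 alone among the alternatives (adjusted p = 0.0479).

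With hormone the Hes1 groups lay on top of each other, at 2.87, 3.04, 3.36, 3.08 and 3.45 in control mice and 3.16, 3.17, 3.97, 3.03 and 3.30 in Jag mice. The antibody difference there was 0.20 (adjusted p = 0.84). Whether the antibody difference at 7 d changed with hormone was tested directly, and the interaction of 1.01 (SE 0.38, adjusted p = 0.374) did not pass. In Jag mice alone, Hes1 was 0.72 higher at 5 d than at 15 h (SE 0.27, adjusted p = 0.0623), with 3 of 5 mice above every 15 h mouse.

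Hes5 (ENSMUSG00000048001, GRCm38 chromosome 4, 154960923 to 154962371), a Hes repressor best known from neural progenitors, had 16 reads in all. It was at 0 in 31 mice and at 1 to 3 reads in 9, including none of the Jag mice at 15 h or 5 d. A count of 0 allows up to 3 reads, or 0.0822 to 0.246 CPM depending on the library, so no difference between groups could be detected at this depth.

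Hey1 (ENSMUSG00000040289, GRCm38 chromosome 3, 8663359 to 8667256), a repressor prominent in vascular endothelium, was higher at later times in both antibody arms. Control mice had 1.43, 1.46, 1.50, 1.06 and 1.74 at 15 h, 1.56, 2.39, 2.48, 1.84 and 2.85 at 5 d, and 2.07, 3.19, 3.54, 3.04 and 3.27 at 7 d. Jag mice had 1.20, 1.09, 1.22, 1.36 and 1.40 at 15 h, 2.31, 1.53, 2.01, 1.59 and 1.84 at 5 d, and 2.30, 2.86, 3.12, 2.42 and 2.25 at 7 d. In both arms every 7 d mouse lay above every 15 h mouse (the groups of 25.6% of all genes in control and 16.8% in Jag mice did not overlap), and at 5 d the values were spread over the gap and its edges. Of the 5 d control mice 1 lay within the 15 h range, 1 between the ranges and 3 within the 7 d range, and of the 5 d Jag mice 4 lay between and 1 within the 7 d range.

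In control mice Hey1 rose from 15 h to 7 d by 1.67 on the log2 scale (SE 0.28, adjusted p = 3.15e-05) and from 15 h to 5 d by 0.85 (SE 0.28, adjusted p = 0.0167). In Jag mice it rose by 1.41 to 7 d (SE 0.28, adjusted p = 0.0012), and the 0.65 to 5 d did not pass (SE 0.28, adjusted p = 0.110). The 7 d increase was called in Jag mice in all 22 alternatives run and in control mice in all but 1 of 23, the fit with the pericyte score, where it was 1.25 (adjusted p = 0.0533). That score did not overlap between the 2 control groups (3.40 to 4.29 at 15 h and 4.43 to 5.06 at 7 d), so this fit compares them at a level they did not share. The 5 d increase in control mice was lost in 6 alternatives, among them the fit with the muscle score (0.79, adjusted p = 0.0568), that with length and GC offsets (0.58, adjusted p = 0.107) and that without control mice 2 and 3 at 15 h (0.95, adjusted p = 0.0586). Markers moved over the same times: the pericyte score was 0.83 higher and the brown adipocyte score 1.71 higher at 7 d than at 15 h in control mice (exact two-sided permutation p = 0.00794 each, adjusted 0.0516 over 130 tests). The myeloid, T cell and proliferation scores changed by -2.84, -1.14 and -0.88 there. The B cell, adipose progenitor and smooth muscle scores changed by -0.83, -0.71 and 1.31. In Jag mice, where Hey1 also rose, the pericyte score changed by -0.11, the brown adipocyte score by 0.46 and the myeloid score by -1.76. Beyond those fits, their part in the Hey1 change was not tested.

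The antibody did not separate the Hey1 groups at any time, with log2 fold changes from -0.47 (7 d, adjusted p = 0.327) to 0.06 (7 d with hormone, adjusted p = 0.962). The rise to 7 d differed between arms by -0.27 (95% interval -1.03 to 0.50, adjusted p = 0.752). With hormone Hey1 was at 2.08, 2.70, 2.65, 1.97 and 2.99 in control mice, and 1 of these 5 lay below every control mouse without hormone, a difference of -0.57 on the log2 scale (SE 0.27, adjusted p = 0.0881). It was called, at -0.76 (adjusted p = 0.0206), when control mouse 1 at 7 d, the lowest of its group, was left out. Jag mice with hormone had 2.27, 2.05, 3.22, 3.03 and 1.86, a difference of -0.05 from Jag mice without it (adjusted p = 0.932).

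Hey2 (ENSMUSG00000019789, GRCm38 chromosome 10, 30832359 to 30842801), a repressor of arterial endothelium and heart, had higher fitted levels in Jag mice at 5 d, 7 d and 7 d with hormone, and none of these differences passed. At 7 d Jag mice had 1.56, 2.20, 2.52, 2.52 and 2.12 and control mice had 1.94, 1.40, 1.53, -0.02 and 1.47, so 4 of 5 Jag mice were above every control mouse. The log2 fold change was 0.84 (SE 0.38, adjusted p = 0.203).

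Hey2 was at 0.08, 0.49, 2.19, 1.82 and 1.86 in Jag mice and 1.50, 0.13, 0.83, 0.60 and 0.44 in control mice at 5 d (log2 fold change 0.76, adjusted p = 0.222), and the Jag mice split into 2 low and 3 high. With hormone Jag mice had 2.07, 1.20, 2.11, 1.35 and 2.02 and control mice 1.01, 1.94, 1.28, -0.25 and 0.50 (0.74, adjusted p = 0.439), with 3 of 5 Jag mice above every control mouse. At 15 h the values were level, at 1.04, 0.71, 1.41, 1.56 and 1.25 in Jag mice and 0.99, 1.68, 1.27, 0.71 and 1.35 in control mice (-0.02, adjusted p = 0.999). In Jag mice Hey2 was 1.03 higher at 7 d than at 15 h (SE 0.38, adjusted p = 0.0515), just outside the threshold, and 7 of 12 other settings called it. In control mice that difference was 0.18 (adjusted p = 0.727), and the 2 arms differed by 0.85 (SE 0.53, adjusted p = 0.415).

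Heyl (ENSMUSG00000032744, GRCm38 chromosome 4, 123233556 to 123249875), a Hey relative known from vascular mural cells, ranged from 81 to 1353 reads and was called in no comparison. Its group means ran from 3.41 ± 1.30 (SD, n = 5) in Jag mice at 7 d to 4.45 ± 0.56 (SD, n = 5) in Jag mice at 5 d. At 7 d Jag mouse 8 stood at 5.64, the highest value of the gene in any mouse, while the other 4 stood at 2.51, 3.00, 2.51 and 3.37 and below all 5 control mice, which ran from 3.62 to 4.63. The log2 fold change of -0.07 (SE 0.42, adjusted p = 0.941) averages these. With hormone the Jag mice had 2.90, 2.82, 3.58, 4.05 and 4.25 and the control mice 4.14 to 4.55, a difference of -0.71 (SE 0.42, adjusted p = 0.545).

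The levels of Heyl followed 2 of the 4 vascular scores from mouse to mouse. After removing group means, Heyl correlated over the 40 mice with the pericyte score (8 genes such as Rgs5 and Pdgfrb) at Pearson r = 0.66 and Spearman rho = 0.71 (permutation within groups, adjusted p = 0.00364 and 0.00273 over 91 relations), and r was 0.63 without the 2 mice farthest from the median score. With the endothelial score r was 0.67 and rho 0.59 (permutation, adjusted p = 0.005 and 0.0136), and r was 0.54 without the 2 farthest mice. With the arterial endothelial score r was 0.37 and rho 0.28 (permutation, adjusted p = 0.285 and 0.567), and with the smooth muscle score r was -0.03 and rho 0.10 (permutation, adjusted p = 0.921 and 0.81). The pericyte score itself was lower in Jag mice, at 3.60 ± 0.26 against 4.84 ± 0.24 at 7 d, 3.90 ± 0.09 against 4.66 ± 0.12 at 5 d and 3.81 ± 0.30 against 4.87 ± 0.04 at 7 d with hormone (SD, n = 5, exact permutation p = 0.00794 each, adjusted 0.0516). At 15 h it was 3.70 ± 0.17 against 4.01 ± 0.39 (SD, n = 5, exact permutation p = 0.135, adjusted 0.292). None of the 8 pericyte markers was at 0 throughout a group, and the summed level at 7 d was 182 to 291 CPM in Jag and 416 to 862 CPM in control mice. At 5 d, 7 d and 7 d with hormone the pericyte score did not overlap between the arms (3.35 to 3.94 in Jag and 4.43 to 5.06 in control mice at 7 d). A fit with this score therefore compares the arms at a level of it that they did not share.

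Nrarp (ENSMUSG00000078202, GRCm38 chromosome 2, 25180758 to 25183339), a small ankyrin repeat protein that limits Notch activity in a feedback loop, had 0 to 80 reads. Its fitted log2 fold changes lay between -0.58 and -0.48 in the 4 antibody comparisons (SE 0.56 to 0.59, lowest adjusted p = 0.620), and none passed. At 5 d the mean log2 CPM ran the other way, at -0.18 in Jag and -0.46 in control mice. Control mice at 5 d spread the most, at -0.87, 1.24, 1.51, -0.79 and -3.37, the last a mouse with 0 reads. From 15 h to 7 d Nrarp was 1.17 higher in control mice (SE 0.57, adjusted p = 0.0920) and 1.25 higher in Jag mice (SE 0.58, adjusted p = 0.125). Control mice had -0.06, -0.24, 0.52, -0.36 and 0.85 at 15 h and 0.89, 1.82, 1.14, 1.00 and 1.57 at 7 d. These groups did not overlap, though narrowly, as was so for 25.6% of all genes. Within groups Nrarp correlated with the endothelial score (r = 0.61, rho = 0.53, permutation adjusted p = 0.0234 and 0.0309), with r = 0.44 without the 2 farthest mice.

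Dtx1 (ENSMUSG00000029603, GRCm38 chromosome 5, 120680202 to 120711927), an E3 ubiquitin ligase that binds Notch and is abundant in lymphocytes, had at most 28 reads in a mouse. At 15 h control mice had 1, 0, 3, 1 and 1 reads and Jag mice had 26, 6, 0, 4 and 3. The fitted log2 fold change of 2.71 (SE 1.04, adjusted p = 0.207) did not pass. The mouse with 26 reads is Jag mouse 6, the one with the high B and T cell scores, and the lowest value with 1 mouse left out was 1.43. Dtx1 was also higher in control mice at 5 d (2.38, SE 1.04, adjusted p = 0.0686) and at 7 d (2.39, SE 1.07, adjusted p = 0.0656) than in the same 15 h control mice, and DESeq2 called both. The antibody difference at 7 d minus that at 15 h was -4.09 (SE 1.42, adjusted p = 0.125). With 1 mouse left out it ran from -4.82 to -2.81 and was never called. With 1 mouse left out, 2 of 10 fits at 5 d and 3 of 10 at 7 d called these changes over time, and the other fits did not.

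Rbpj (ENSMUSG00000039191, GRCm38 chromosome 5, 53466152 to 53657362) encodes the DNA-binding partner of the cut receptor and is itself a pathway component. Pseudogenes of it (Rbpj-ps1 and Rbpj-ps3) are annotated, and how the authors' counting assigned reads they could share is not given in the sources used here. At 15 h control mice had 3.24, 5.13, 4.66, 3.48 and 3.64 (173, 787, 413, 194 and 218 reads), and Jag mice had 3.02, 2.91, 3.06, 2.95 and 2.87. The 5 Jag mice lay within a narrow band below every control mouse (2.48% of all genes had no overlap here), and control mice 2 and 3 lay far above the other 3. The log2 fold change was -1.27 (SE 0.28, adjusted p = 0.0321), and 1.14% of all genes were called in this comparison.

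Control mice 2 and 3 are the 2 with the high myeloid and low brown adipocyte scores. Without both, Rbpj differed by -0.50 between antibodies at 15 h (adjusted p = 1). Without mouse 2 the difference was -0.89 (adjusted p = 0.335) and without mouse 3 it was -1.13 (adjusted p = 0.114), and leaving out any 1 Jag mouse also moved the adjusted p above the threshold, to 0.0507 to 0.0848. With the myeloid score in the fit it was -0.89 (adjusted p = 0.116). The call was lost in 7 of 10 fits without 1 mouse.

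At 5 d the Rbpj groups overlapped, at 3.44, 1.78, 2.99, 3.07 and 3.18 in control mice and 2.72, 2.27, 2.97, 2.76 and 2.95 in Jag mice (-0.24, adjusted p = 0.646). At 7 d the order was the opposite of that at 15 h. Control mice had 2.58, 2.17, 2.53, 1.59 and 2.15 and Jag mice had 3.40, 2.85, 2.72, 2.76 and 2.61, with no overlap, yet the log2 fold change of 0.65 (SE 0.28, adjusted p = 0.187) did not pass. In this comparison 2.5% of all genes were called and the groups of 3.31% did not overlap. With the pericyte score in the fit the direction turned, to -0.56 (adjusted p = 0.555), but that score did not overlap between the arms at 7 d.

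The antibody difference of Rbpj changed from 15 h to 7 d by 1.92 (SE 0.40, adjusted p = 0.0201), an interaction for which 1.31% of all genes were called. Without control mice 2 and 3 at 15 h it was 1.15 (adjusted p = 0.214). The call was also lost without control mouse 2 at 15 h alone (1.55, adjusted p = 0.0775), control mouse 3 at 15 h alone (1.79, adjusted p = 0.052), control mouse 2 at 7 d (1.86, adjusted p = 0.0515) or Jag mouse 6 at 7 d (1.75, adjusted p = 0.0572). From 15 h to 5 d the change was 1.03 (SE 0.39, adjusted p = 0.217), and from 5 d to 7 d it was 0.89 (SE 0.40, adjusted p = 0.240).

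In control mice Rbpj fell from 15 h to 7 d by 1.99 on the log2 scale (SE 0.29, adjusted p = 7.34e-06), with no overlap (25.6% of all genes had none), and from 15 h to 5 d by 1.24 (SE 0.28, adjusted p = 0.00134). Without control mice 2 and 3 at 15 h the 7 d change was -1.23 (adjusted p = 0.00135) and remained called, and the 5 d change was -0.41 (adjusted p = 0.246). The 5 d change was lost in 6 of 13 other settings in all, among them the fit with the myeloid score (-0.55, adjusted p = 0.119), and held with the muscle score (-1.23, adjusted p = 0.00815). In Jag mice the changes were -0.07 to 7 d (adjusted p = 0.884) and -0.21 to 5 d (adjusted p = 0.629). The fits with the pericyte score (-1.06, adjusted p = 0.0636) and with length and GC offsets (-1.34, adjusted p = 5.86e-05) gave smaller 7 d changes in control mice. The pericyte score did not overlap between control mice at 15 h and at 7 d.

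Thyroid hormone raised Rbpj in control mice. With hormone these had 3.32, 3.42, 3.76, 2.77 and 3.76, all above the highest control mouse without it (2.58), a difference of 1.21 on the log2 scale (SE 0.28, adjusted p = 0.000967). In this comparison 43.2% of all genes were called and the groups of 29.8% did not overlap, so a call here is common. Jag mice with hormone had 3.41, 3.28, 3.36, 3.51 and 3.05, with 2 of 5 above every Jag mouse without it, a difference of 0.44 (SE 0.28, adjusted p = 0.310). The 2 hormone effects differed by -0.77 (95% interval -1.54 to 0.00, adjusted p = 0.418).

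**Figure D2:**
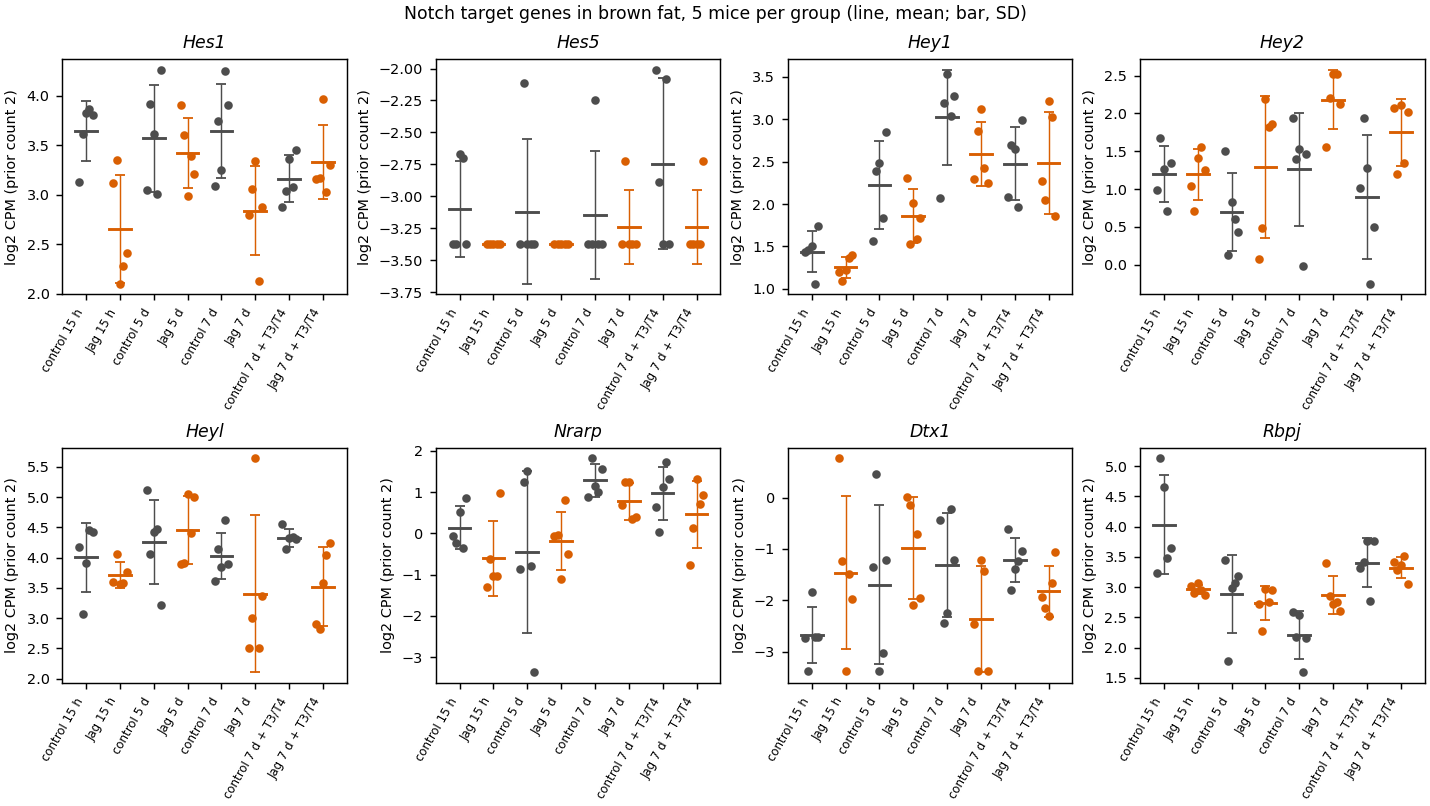
Log2 CPM of the 8 genes in each mouse (points), by group, with the mean (line) and SD (bar) of 5 mice, control mice in grey and Jag mice in orange. Hey1 climbs from 15 h to 7 d in both arms, and Rbpj is highest in control mice 2 and 3 at 15 h (5.13 and 4.66) and lowest in control mice at 7 d.

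The size of the hormone effect on Rbpj was smaller when transcript length and GC content were both taken into the fit. Longer transcripts were relatively more abundant in libraries from hormone-treated control mice, whose log2 CPM rose with log2 exonic length with a slope of 0.166 ± 0.0862, against -0.226 ± 0.199 without hormone (SD, n = 5, exact permutation p = 0.00794, adjusted 0.0198). The slope also changed from 15 h to 7 d without hormone, by -0.329 in control mice and -0.15 in Jag mice (exact permutation, adjusted p = 0.0198 each). Between antibodies at 7 d it differed by 0.166 (exact permutation, adjusted p = 0.185). Control mice at 7 d without hormone had the lowest mean slope of the 8 groups. The Rbpj comparisons with hormone, over time to 7 d and between antibodies at 7 d all use these control mice. Rbpj has 12750 bp of annotated exon, the longest of the 8, and the lowest GC content (43.7%), and the 2 were not separated. With length and GC offsets the log2 fold change was 0.63 (adjusted p = 0.0323), and with the myeloid score in the fit it was 0.77 (adjusted p = 0.0165). The call held in all 22 alternatives run. With hormone in control mice the proliferation score was 3.64 higher, the myeloid score 1.71 higher and the adipose progenitor score 1.28 higher, and the brown adipocyte score changed by -1.34 (exact permutation p = 0.00794 each, adjusted 0.0516), and apart from the fit with the myeloid score their part in the Rbpj change was not tested.

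Over all 40 mice Rbpj ran against the brown adipocyte score. After removing group means r was -0.70 and rho was -0.59 (permutation within groups, adjusted p = 0.00789 and 0.0309 over 91 relations), and r was -0.57 without the 2 farthest mice. With the myeloid score r was 0.56 and rho 0.32 (permutation, adjusted p = 0.178 and 0.482), and r was 0.30 without the 2 farthest mice, so that relation rests on them.

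**Figure D3:**
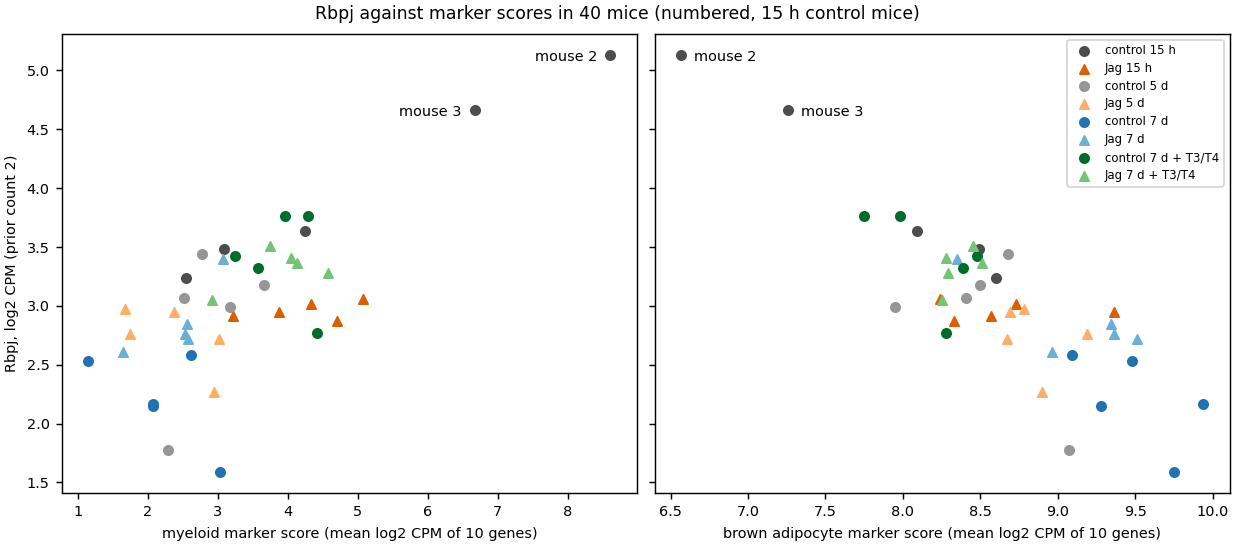
Rbpj log2 CPM in 40 mice against the myeloid score (left) and the brown adipocyte score (right), each the mean log2 CPM of 10 marker genes, with circles for control and triangles for Jag mice. Control mice 2 and 3 at 15 h stand apart at 5.13 and 4.66, at the highest myeloid scores (8.61 and 6.67) and the lowest brown adipocyte scores (6.57 and 7.26).

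Counted over the 7 tested genes, the antibody comparisons gave 1 call at 15 h (Rbpj) and 0 at 5 d, where 1.14% and 8.02% of all genes were called. There were also 0 at 7 d and 0 at 7 d with hormone, where 2.5% and 1.14% of all genes were called. At an unadjusted p under 0.05 there were 3 at 15 h (Hes1, Dtx1 and Rbpj), 0 at 5 d, 3 at 7 d (Hes1, Hey2 and Rbpj) and 0 with hormone, where 12%, 22.9%, 20.5% and 11.9% of all genes met it. DESeq2 called Hes1 and Rbpj at 15 h, Hes1 at 7 d and no member in the other 2. Medians of the 7 log2 fold changes were -0.36, -0.20, -0.47 and -0.12, against -0.04, 0.04, 0.05 and -0.02 over all tested genes. The hormone gave 1 call in control mice (Rbpj) and 0 in Jag mice, where 43.2% and 9.5% of all genes were called, and the antibody by hormone interaction gave 0 (0.00586% of all genes). By edgeR's quasi-likelihood test, 0 of the 7 in Jag mice had an unadjusted p under 0.05 for the hormone (27% of all genes), and 1 (Hes1) did for that interaction (12.3%), and DESeq2 called 0 in both.

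Over time, 2 of 7 were called in control mice at 5 d and 2 at 7 d (Hey1 higher and Rbpj lower), in comparisons that share the 15 h control mice and that called 36.4% and 45.1% of all genes. In Jag mice 0 were called at 5 d and 1 at 7 d (Hey1), beside 14.5% and 18.3% of all genes. At 5 d 2 of these genes, Hes1 and Hey1, had an unadjusted p under 0.05 (31% of all genes) and DESeq2 called 0. The antibody difference changed between 15 h and 5 d for 0 of 7 genes (0.0995% of all genes) and between 5 d and 7 d for 0 of 7 (1.29%), with 1 gene, Rbpj, at an unadjusted p under 0.05 in each (14.6% and 16.7% of all genes) and 0 called by DESeq2.

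**Figure D4:**
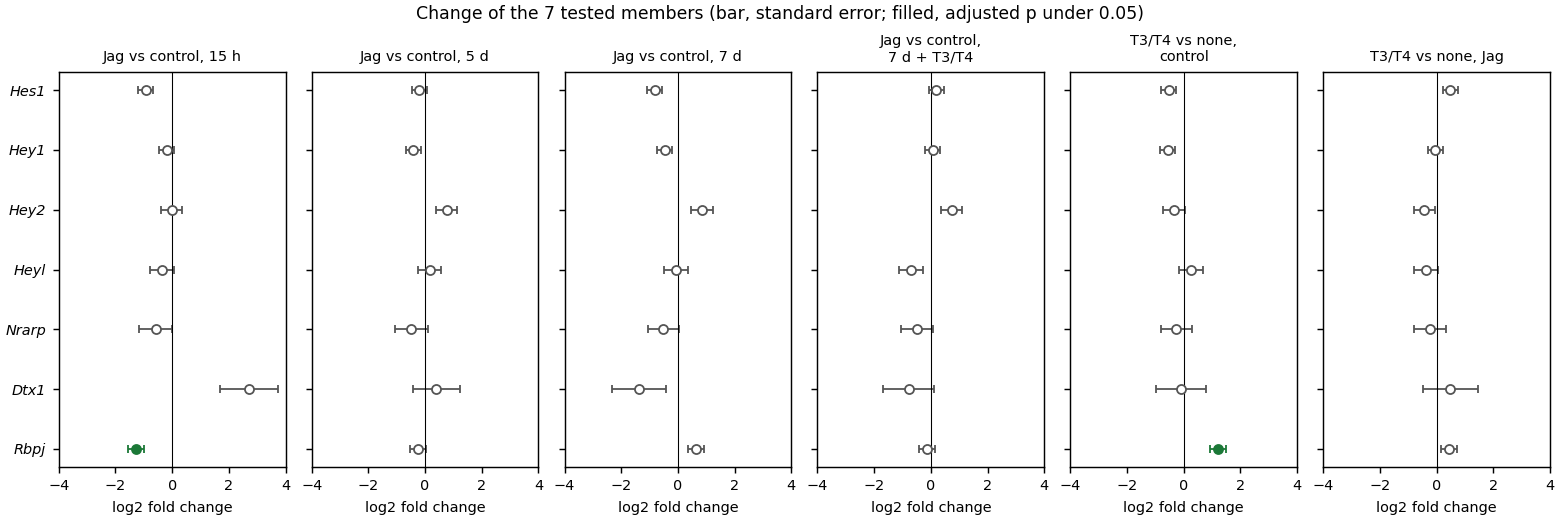
Log2 fold change (point) and standard error (bar) of the 7 tested genes in the 4 antibody and 2 hormone comparisons, filled where the adjusted p was under 0.05. The filled points are Rbpj at 15 h (-1.27) and Rbpj with hormone in control mice (1.21).

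Ordered by mean, Hes1 was highest in control mice at 15 h (3.64 ± 0.30) and lowest in Jag mice at 15 h (2.65 ± 0.55). Hey1 ran from 3.02 ± 0.56 in control mice at 7 d to 1.26 ± 0.13 in Jag mice at 15 h. Hey2 ran from 2.19 ± 0.40 in Jag mice at 7 d to 0.70 ± 0.52 in control mice at 5 d, and Rbpj from 4.03 ± 0.82 in control mice at 15 h to 2.20 ± 0.40 in control mice at 7 d (SD, n = 5). Of the 49 neighbouring pairs of groups in the orders of the 7 genes, the means of 46 differed by less than the larger SD of the pair. The other 3 were Hey1 in Jag mice at 5 d over control mice at 15 h (0.42), Rbpj in Jag mice with hormone over Jag mice at 15 h (0.36) and Rbpj in Jag mice at 5 d over control mice at 7 d (0.53), each with overlapping values.

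The members did not move as a block from mouse to mouse. After removing group means, Pearson r over the 40 mice for the 21 pairs of tested genes ran from -0.43 (Hes1 with Hey2) to 0.46 (Hey2 with Rbpj), given as a description with no test. Among all genes of mean log2 CPM of at least 1, those most like Rbpj over the 40 mice were Atp2b1 and Clcn5 (r = 0.90 each) and Cers6 (r = 0.88). Those most like Hey1 were Bysl (0.83), Mapkapk3 (0.82) and Rom1 (0.81), and those most like Heyl were Prelp (0.70), Nipal3 (0.68) and Tm9sf4 (0.66). For Hes1 the closest gene reached 0.64 (Map2k3os) and for Hey2 0.72 (Smg5). All of these are descriptions over mice that share groups and libraries.

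Of 46 other genes of the pathway, from receptors to turnover, 41 were tested. The antibody changed 0 at 15 h and 0 at 7 d, beside 1.14% and 2.5% of all genes. At 5 d it lowered 4, the receptor Notch3 (-1.18, adjusted p = 0.0338), the ligand-endocytosis ligase Neurl1a (-5.26, adjusted p = 0.00357), the glycosyltransferase Mfng (-1.42, adjusted p = 0.00943) and Dtx3 (-1.04, adjusted p = 0.00336), and raised Aph1a of the gamma-secretase complex (0.74, adjusted p = 0.0270). Of all genes 5.93% were lower and 2.09% higher in that comparison. All 5 calls were lost with the skeletal muscle score in the fit, where Notch3 was at -1.26, Neurl1a at -2.71, Mfng at -0.98, Dtx3 at -0.86 (adjusted p = 0.0713) and Aph1a at 0.64. That score does not overlap between the arms at 5 d (-2.69 to 2.20 in Jag and 5.10 to 13.71 in control mice), and with it the calls over all genes went from 1369 to 89. At 7 d with hormone the antibody lowered Notch3, a mural cell receptor (-1.35, adjusted p = 0.0455), and that call was lost in 9 of 10 fits without 1 mouse. With the pericyte score in the fit Notch3 turned to 0.33 (adjusted p = 0.725). That score did not overlap between these arms (3.37 to 4.05 in Jag and 4.80 to 4.90 in control mice).

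Hormone raised 21 and lowered 4 of the 41 in control mice, with a median log2 fold change of 0.55 against 0.04 over all genes, of which 20.3% rose and 22.9% fell. All 4 receptors rose, Notch4 by 1.43 (adjusted p = 0.000305), as did 3 of 5 tested ligands, the protease Adam10 (1.21, adjusted p = 0.000383), the gamma-secretase subunit Ncstn (0.73, adjusted p = 0.000244), 5 of 8 cofactors and the ubiquitin ligase Dtx3l (2.05, adjusted p = 0.000178). Dtx2 (-1.03, adjusted p = 0.000533), Psenen (-1.78, adjusted p = 0.000767), Hes6 (-1.19, adjusted p = 0.00195) and Aph1a (-0.61, adjusted p = 0.0189) fell. With length and GC offsets 15 of the 25 stayed called. In Jag mice 3 rose (Notch2, Notch3 and Notch4, by 0.98, 1.10 and 0.90) and 2 fell (Mfng, -1.03, and Dtx2, -1.0), beside 4.29% and 5.21% of all genes, and the interaction called 0 of the 41. Of these, Dtx2 (adjusted p = 0.00464) was called in all 22 alternatives run. In fits without 1 mouse Notch2 was lost in 1 of 10 (adjusted p = 0.021 with all mice), Notch3 in 6 (0.0428), Notch4 in 7 (0.0453) and Mfng in 8 (0.0425). With the endothelial score in the fit these 4 calls in Jag mice were lost. Notch2 was then at 0.92 (adjusted p = 0.0598), Notch3 at 0.50 (0.23), Notch4 at 0.42 (0.237) and Mfng at -0.70 (0.218). That score was 0.39 higher with hormone in Jag mice (exact permutation p = 0.0873, adjusted 0.252). In control mice Notch3 and Notch4 stayed called in all 22 alternatives run.

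Among 14 genes reported elsewhere as Notch targets, 13 were tested. Notch3 and Dll4 are also in the list of other pathway genes, so their calls enter both counts. The antibody changed 0 of the 13 at 15 h and at 7 d, beside 1.14% and 2.5% of all genes. At 5 d the growth regulator Myc (1.23, adjusted p = 0.0276) and the interleukin receptor Il2ra (1.33, adjusted p = 0.0245) rose and Notch3 fell, and these 3 calls were lost with the muscle score in the fit. Of all genes 2.09% were higher and 5.93% lower there. Hormone in control mice raised 6, among them the cyclin Ccnd1 (2.38, adjusted p = 2.08e-05), Efnb2 (1.29, adjusted p = 0.00158) and Myc (1.48, adjusted p = 0.00119), and lowered Id1 (-1.46, adjusted p = 0.00143). Of all genes 20.3% rose and 22.9% fell with hormone in control mice. In Jag mice hormone raised Ccnd1 (1.96, adjusted p = 0.000856) and, in the call that 6 of 10 fits without 1 mouse lost, Notch3, where 4.29% of all genes rose. Myc was also the 1 of these 13 whose antibody difference changed over time, by 2.51 from 15 h to 5 d (adjusted p = 0.0312, beside 0.0995% of all genes called) and 2.21 from 15 h to 7 d (adjusted p = 0.0231, beside 1.31%). Without control mice 2 and 3 at 15 h neither Myc change was called, at 2.16 (adjusted p = 0.102) and 1.91 (adjusted p = 0.184), and with the muscle score the 5 d one was 2.26 (adjusted p = 0.149). In fits without 1 mouse the Myc calls were lost in 6 of 20 and 4 of 20, in each case including those without control mouse 2 or control mouse 3 at 15 h.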

How the data were processed

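Raw counts per Ensembl gene and FPKM values were deposited by the authors for 40 mice. Reads were single-end, 50 bp, per the labels' protocols, and the submitters' processing notes name GSNAP and limma. Build, annotation, counting and strand are not given in the sources used here. Symbols matched 52403 of 52636 genes, and positions are from GENCODE M21 on GRCm38. The test was that of edgeR 4.0.16 under R 4.3.3 on these counts (filterByExpr, 17079 genes, TMM, robust quasi-likelihood F test, 1 model over 40 mice with a mean per group), with Benjamini-Hochberg adjustment over all genes at 0.05. Comparisons were 10 of 2 groups and 4 interactions. Marker scores were compared by exact two-sided permutation (252 arrangements, smallest p 0.00794). Correlations used 100000 permutations within groups. Scripts were tested on simulated data.

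The members and lists were chosen with earlier results of these data known. The rule for named genes was all 8 members, pathway and target genes called in an antibody comparison, and up to 4 per direction by smallest adjusted p with hormone. The Myc interactions were named after their values were seen. Length slopes used 12127 genes. Alternatives were DESeq2 1.42.0, RLE factors, no low-count filter, only the groups compared, a muscle score, length and GC offsets, limma 3.58.1 on log2(FPKM + 1), leaving out single mice, and mouse numbers as a replicate block. Those added after seeing the data were myeloid, endothelial and pericyte scores and leaving out control mice 2 and 3 at 15 h.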

Additional observations from a re-analysis of the deposited data

Results flagged for a closer look

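In a group of 5 mice, a lone mouse was singled out when its gap to the nearest other mouse exceeded 0.71 of the whole range. This happened in 4 of 56 groups of the 7 tested genes, where chance gives about 1 in 20, or 2.8. Hes1 in Jag mouse 8 with hormone stood at 3.97 log2 CPM, above the other 4, the highest of which was 3.3. Hey2 in control mouse 4 at 7 d stood at -0.02, below the other 4, the lowest of which was 1.4. Heyl in Jag mouse 8 at 7 d stood at 5.64, above the other 4. Rbpj in control mouse 2 at 5 d stood at 1.78, below the other 4.

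The antibody effect on Rbpj differed between 15 h and 7 d by 1.92 on the log2 scale in the test of the interaction itself (adjusted p = 0.0201), and by 1.15 (adjusted p = 0.214) without control mice 2 and 3 at 15 h.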

How the results depend on the processing

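Of 867 values under other settings, 718 were unchanged, 127 lost the call, 18 gained one and 4 turned direction. For a change in a gene, unchanged means the same direction and the same side of the threshold, so changes never called count too. The 718 also hold, for each of the 8 genes, the order of its group levels on the FPKM scale. With 1 mouse left out, 693 of 820 were unchanged in this sense, 116 lost the call, 11 gained one and 0 turned. The 4 that turned all came with the pericyte score in the fit: Notch3 at 5 d (0.15) and at 7 d with hormone (0.33) between antibodies, Rbpj between antibodies at 7 d (-0.56), and Nrarp at 7 d against 15 h in control mice (-0.0047). In each of these 4 the pericyte score did not overlap between the 2 groups compared, so that fit compares them at a level they did not share. The same gap applies to the counts with that score between antibodies at 5 d and 7 d, given next. The cause of the 4 turns was not tested.

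The number of the 7 tested genes called between antibodies at 15 h, 1 in the report, was 2 with DESeq2 and with length and GC offsets. It was 0 without the low-count filter, with only the groups compared, with limma on log2(FPKM + 1), with the myeloid score and without control mice 2 and 3, and 0 to 2 without 1 mouse. On the log2(FPKM + 1) scale the group means of Rbpj were 0.06 to 0.24 and those of Dtx1 0.00 to 0.02. Values so near 0 compress the differences of these genes in the limma fits. At 5 d it went from 0 to 2 with the pericyte score. At 7 d it went from 0 to 1 with DESeq2 and to 1 with the pericyte score. For 7 d against 15 h in control mice the 2 became 3 with DESeq2 and 1 with the pericyte score. For 5 d against 15 h in control mice the 2 became 3 with DESeq2, 1 with the muscle or the myeloid score, and 0 with only the groups compared, with length and GC offsets, with the pericyte score and without control mice 2 and 3. For 5 d against 15 h in Jag mice the 0 became 2 with only the groups compared, 1 with the muscle score, and 0 to 1 without 1 mouse. For 7 d against 15 h in Jag mice the 1 became 2 with DESeq2, only the groups compared, the muscle score, length and GC offsets and limma, and was 1 to 2 without 1 mouse. For hormone in control mice it was 1 to 2 without 1 mouse. For the antibody difference at 7 d minus that at 15 h the 1 became 0 with only the groups compared, limma, the pericyte score and without control mice 2 and 3, and was 0 to 1 without 1 mouse.

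Over all genes, the calls between antibodies ranged from 0 to 915 at 15 h (194 in the report), 89 to 2065 at 5 d (1369), 53 to 888 at 7 d (427) and 117 to 891 with hormone (194). For hormone they ranged from 6137 to 7970 in control mice (7378) and 990 to 2782 in Jag mice (1622). Against 15 h they ranged from 0 to 7170 (6214) and 1167 to 8436 (7698) in control mice, and 1556 to 3550 (2470) and 1728 to 4221 (3126) in Jag mice. For the interactions they ranged from 0 to 36 with hormone (1), 0 to 502 for 5 d minus 15 h (17), 0 to 638 for 7 d minus 15 h (223) and 0 to 971 for 7 d minus 5 d (220).

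Same-numbered mice are different animals, and the correlations of their deviations from the group means were mixed. Over 6 pairs of groups the mean of the 5 correlations was 0.0859 to 0.203, the lowest -0.399 to -0.0762 and the highest 0.302 to 0.744. Of 30 mice 13 correlated best with their own number, a hint from the data and not the design. With the number as a replicate block, the calls became 2 for hormone in control mice (Hey1 added), 1 at 5 d and 2 at 7 d against 15 h in Jag mice. With length and GC offsets added to the replicate block they became 1 for hormone in Jag mice, 0 at 5 d against 15 h in control mice and 2 at 7 d against 15 h in Jag mice. Depth limits Hes5 and Dtx1 most.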
